A study of Mus musculus with 2 samples.

Results

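The enzymes that break down the branched-chain amino acids leucine, isoleucine and valine were examined in mouse gastrocnemius muscle held still in a plaster cast. The set holds 10 genes, Bcat1, Bcat2, Bckdha, Bckdhb, Dbt, Bckdk, Ppm1k, Ivd, Mccc1 and Acad8. They were found as the non-control probes whose gene name on the array equals one of these symbols, which gave 13 of 39429 probes. All 10 genes were measured, meaning well above background on both arrays with at least 1 probe, and so were 15131 named genes in all.

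Wild-type male C57BL/6 mice aged 9 weeks were compared in 2 groups, control mice and mice whose hindlimb muscles were immobilised by a plaster cast for 11 days. RNA of the gastrocnemius, the main calf muscle, was pooled by group, taken here to mean 6 mice a pool, and 1 whole-genome array was hybridised per pool. With 1 array per group there is no replicate, no p-value and no SE between animals. The control group is not described further in the labels, so handling that went with the cast cannot be told apart from immobilisation itself.

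Branched-chain amino acids are unusual in that skeletal muscle, more than liver, starts their breakdown. An aminotransferase first moves the amino group to 2-oxoglutarate, which is reversible. The branched-chain ketoacid dehydrogenase complex of the mitochondrial matrix then removes carbon dioxide and adds coenzyme A, which commits the carbon to oxidation. That complex is switched off by a kinase that phosphorylates its E1 alpha subunit and switched on again by a phosphatase, and the acyl-CoA products pass through separate steps for each amino acid.

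Both arrays lay on 1 slide and were scanned together, but at different slide positions, which cannot be told apart from the groups. Well above background were 60.6% of probes in control and 56.8% in cast muscle. No gene spot was saturated, and no member probe carried an outlier flag. Intensities are given on a scaled axis on which the 75th percentile of each array is 100, and log2 ratios are log2(cast/control) on that scale. The SD of a log2 ratio between replicate spots of a probe had a median of 0.152 in the dimmest 65 replicated probes and of 0.0782 in the brightest 65. That SD is blind to variation between mice and between hybridisations. In bulk RNA, fewer cells of a type and less RNA per cell cannot be told apart.

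The values below rest on single 60-base probes for 8 of the 10 genes, so the sequences that the results turn on are shown, 5′ to 3′, with positions on mm9 as the scanner files give them. The Bcat2 and Dbt probes carry differences of close to 2-fold, the Bckdhb probe one of the opposite sign, and the probes of Bcat1 and Mccc1 differ within their gene. Capitals mark AATAAA or ATTAAA, the letters of the common polyadenylation signals, which were searched on the probe strand alone.
Bcat2, chr7:52844940-52844999, plus strand: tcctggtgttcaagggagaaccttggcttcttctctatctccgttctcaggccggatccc
Bcat1 probe a, chr6:144942376-144942435, minus strand: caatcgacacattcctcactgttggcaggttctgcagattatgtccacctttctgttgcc
Bcat1 probe b, chr6:144948396-144948455, minus strand: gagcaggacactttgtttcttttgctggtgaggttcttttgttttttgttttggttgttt
Bcat1 probe c, chr6:144952871-144952930, minus strand: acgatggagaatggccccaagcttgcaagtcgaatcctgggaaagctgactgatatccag
Bckdhb, chr9:84017787-84017846, plus strand: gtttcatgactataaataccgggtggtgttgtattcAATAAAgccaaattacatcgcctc
Dbt, chr3:116252015-116252074, plus strand: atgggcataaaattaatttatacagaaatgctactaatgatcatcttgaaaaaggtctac
Mccc1 upstream probe, chr3:35858790-35858849, minus strand: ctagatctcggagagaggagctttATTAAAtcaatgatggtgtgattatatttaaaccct
Mccc1 downstream probe, chr3:35858227-35858286, minus strand: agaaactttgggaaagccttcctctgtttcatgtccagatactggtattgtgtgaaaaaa

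These letters occurred in 2 of the 13 member probes, and in 16.7% of all 39429 array probes. The GC content of the member probes ran from 28.3% (Dbt) to 55.0% (Bcat2, Bckdha and Bckdk). Whether a probe lies in a coding or an untranslated exon was not looked up, because mm9 gene models are not analysed here.

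The mitochondrial aminotransferase was lower on the cast array. Bcat2, the isoform that carries out the first step in muscle mitochondria, had a scaled intensity of 355 in control and 181 in cast muscle. Its log2 ratio of -0.98 is a 1.97-fold lower value, with a spot-level SD of 0.09. This was the lowest ratio of the 10 genes, and 2.27% of all genes measured had a lower one.

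The cytosolic aminotransferase was close to background and showed no difference beyond single-spot error. Bcat1, the isoform best known from brain and from proliferating cells, had 1 of 3 probes well above background. That probe, a, read 9.33 in control and 9.86 in cast muscle, a log2 ratio of 0.08 with a spot-level SD of 0.15. Probe b was given a surrogate value on both arrays in place of a signal, and probe c was not well above background on either, so neither has a ratio. The log2 ratio of probe a was -0.06 with normexp background correction and 0.42 with no scaling. The ratios of the mitochondrial and the cytosolic isoform differed by 1.06 log2 units.

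**Figure D1:**
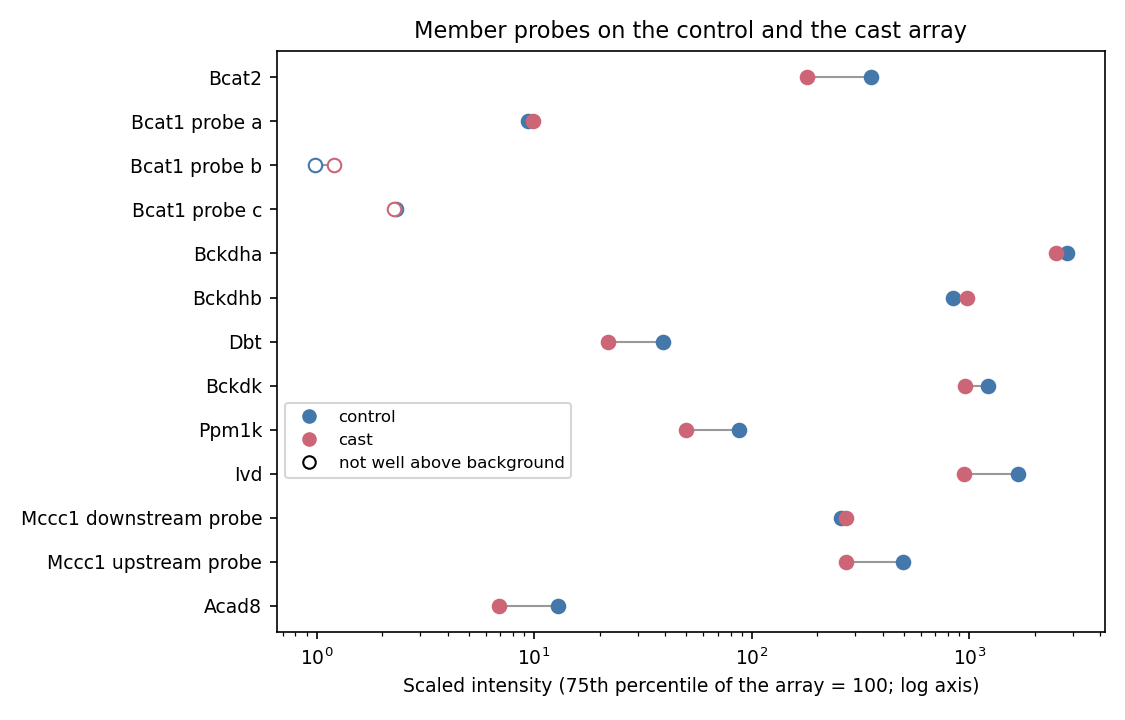
Scaled intensity of each of the 13 member probes (x axis, log scale, 75th percentile of the array = 100) on the control array (blue) and the cast array (red), 1 array per group, with open circles for signals not well above background. The cast point lies to the left for Bcat2, Dbt, Ppm1k, Ivd, Acad8 and the upstream Mccc1 probe. Bckdk, Bckdha and Bcat1 probe c also have it to the left, but by less. Bckdhb, the downstream Mccc1 probe and Bcat1 probes a and b have it to the right.

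The subunits of the branched-chain ketoacid dehydrogenase complex did not differ alike. Bckdha, the E1 alpha subunit that the kinase phosphorylates, read 2820 in control and 2510 in cast muscle, a log2 ratio of -0.17 with a spot-level SD of 0.08. Bckdhb, the E1 beta subunit that pairs with it, read 847 and 977, a log2 ratio of 0.21. Dbt, the E2 core that carries the lipoyl group and passes the acyl group to coenzyme A, read 39.2 and 21.8, a log2 ratio of -0.84 with a spot-level SD of 0.15. The core subunit was thus 1.79-fold lower while the E1 subunits were 1.12-fold lower (alpha) and 1.15-fold higher (beta).

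Differences between log2 ratios on the same pair of arrays do not depend on a constant scaling factor. Bckdhb stood 1.05 log2 units above Dbt, and between 0.84 and 1.07 over all settings that were run. Bckdha stood 0.67 above Dbt, and between 0.48 and 0.70 over the same settings. The gap of 0.37 between both E1 subunits was also larger than its spot-level SD of 0.11. The scanner software's own error, which adds a multiplicative term, was larger, at 0.20 log2 units for Bckdha and for Bckdhb. Neither E1 ratio (-0.17 and 0.21) lies clearly beyond that error. These gaps show unequal ratios and do not say which transcript kept its level. The Bckdha ratio turned to 0.17 unscaled and to 0.18 on the spike-in scale.

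The switch of the complex consists of a kinase and a phosphatase, and the phosphatase had the lower ratio. Bckdk, the kinase that turns the complex off, read 1226 in control and 957 in cast muscle, a log2 ratio of -0.36 with a spot-level SD of 0.08. Ppm1k, the mitochondrial phosphatase that turns it on, read 87.6 and 50.02, a log2 ratio of -0.81 with a spot-level SD of 0.10. The kinase ratio stood 0.45 log2 units above the phosphatase ratio, a 1.37-fold gap that ran from 0.33 to 0.45 over the settings. The scanner software's own error was larger than these SDs, at 0.20 log2 units for the Bckdk ratio and 0.21 for the Ppm1k ratio. Both errors enter the gap, so its size is uncertain. With no scaling Bckdk was at -0.02 and Ppm1k at -0.47.

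Each measured gene of the later steps in the set was lower on the cast array with its brightest probe. Ivd, the isovaleryl-CoA dehydrogenase of the leucine branch, read 1675 in control and 946 in cast muscle, a log2 ratio of -0.83 with a spot-level SD of 0.08. Acad8, the isobutyryl-CoA dehydrogenase of the valine branch, read 12.8 and 6.90, a log2 ratio of -0.90 with a spot-level SD of 0.15. The scanner software's own error for the Acad8 ratio, which adds a multiplicative term, was larger at 0.33 log2 units. Its cast signal before scaling was 33.5, not far above 20.3, the lowest signal called well above background on that array. Normexp background correction gave Acad8 a log2 ratio of -0.49.

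The probes of Mccc1, the biotin-carrying alpha subunit of methylcrotonyl-CoA carboxylase in the leucine branch, disagreed. The upstream probe read 495 in control and 273 in cast muscle, a log2 ratio of -0.86 with a spot-level SD of 0.08. The downstream probe, 503 bases further along the transcript strand, read 258 and 272, a log2 ratio of 0.074 with a spot-level SD of 0.09. The upstream probe is the one that holds the ATTAAA shown above. The gap of 0.93 log2 units was far beyond spot-level error. Of 3493 genes with several measured probes, 3.44% had a range as large, against a median range of 0.18. The mean of both Mccc1 probes was -0.39, so the 1.81-fold lower value of this gene rests on 1 of its 2 probes.

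Over the 10 genes, 8 had a log2 ratio below 0, where 53.0% of all 15131 genes measured did. At least 1.5-fold lower were 6 genes (Bcat2, Acad8, Mccc1, Dbt, Ivd and Ppm1k), against 8.24% of all genes, and 0 were at least 1.5-fold higher, against 7.04% of all genes. None of the 10 was at least 2-fold lower or higher, sizes that 2.10% and 2.23% of all genes had. The median log2 ratio of the set was -0.82, and that of all genes measured was -0.03. The genes that were at least 1.5-fold lower lay close together, from -0.98 for Bcat2 to -0.81 for Ppm1k, with 2.27% to 3.78% of all genes below them. The other 4 ran from -0.36 (Bckdk) to 0.21 (Bckdhb). The set was put together with earlier results of these arrays known, so its counts describe it and are no independent evidence of a direction.

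**Figure D2:**
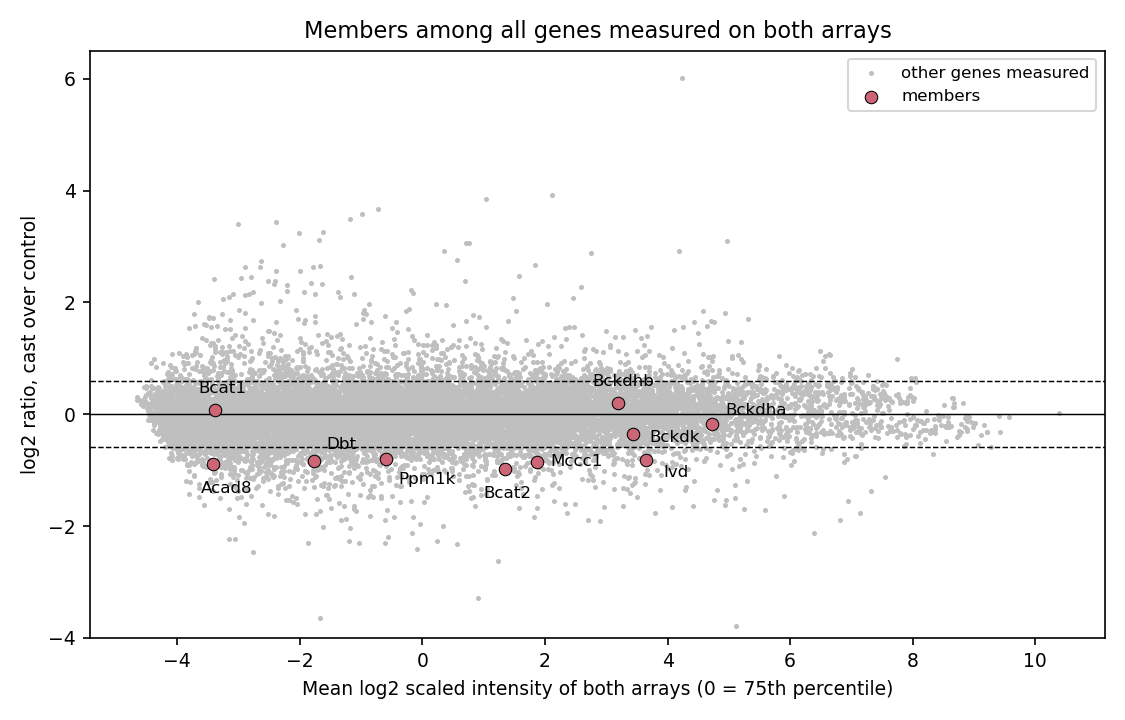
Log2 ratio of cast over control (y axis) against the mean log2 scaled intensity of both arrays (x axis, 0 = 75th percentile) for all 15131 genes measured (grey) and the 10 members (red, named). Dashed lines mark 1.5-fold. Members on the lower side of the band are spread along the intensity axis from Acad8 to Ivd, and Bcat1, Bckdha, Bckdhb and Bckdk lie within it.

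The direction of the smaller ratios depended on how the arrays were scaled. The median of all genes was -0.03 with the 75th percentile, 0.31 unscaled and 0.32 on the spike-in scale, a shift of over 0.3 log2 units that all genes share. The split of genes at least 1.5-fold apart was 1065 higher and 1247 lower with the 75th percentile, 1421 and 950 with median scaling, 3587 and 404 unscaled, and 3700 and 392 on the spike-in scale. Unscaled, each log2 ratio is higher by 0.34, and by 0.35 on the spike-in scale, so ratios given here between -0.34 and 0 turn positive. With no scaling the median of the 10 genes was -0.48, Bcat2 alone was still at least 1.5-fold lower (-0.64), and 7 genes were below 0. Relative to the median of all genes, the set lay at -0.79 with each of these 4 scalings, as a constant factor must give, and 6 genes were at least 1.5-fold below that median. Relative to the median of 139 to 253 nearby spots on the array, the log2 ratio was -0.92 for Bcat2, -0.81 for Dbt and -0.79 for Ivd.

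**Figure D3:**
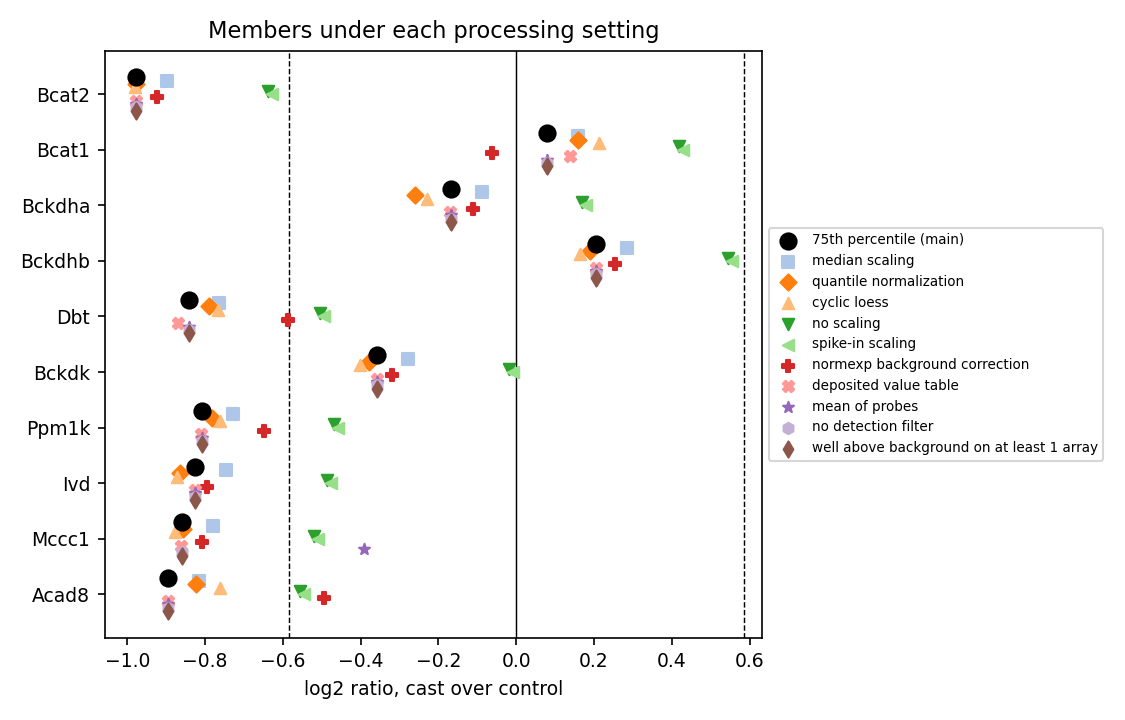
Log2 ratio of cast over control (x axis) for each of the 10 members under the 75th percentile scaling (large black circles) and 10 alternative settings (other symbols), with dashed lines at 1.5-fold. Bcat2 stays left of the lower line in all of them, and the points without scaling and with spike-in scaling lie furthest to the right for most genes, the exceptions being Mccc1 with the mean of its probes and Acad8 with normexp.

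The rest of the pathway was lower on the cast array by smaller amounts. Of 16 further genes, all measured, 15 were below 0, against 53.0% of all genes measured. At least 1.5-fold lower were 2, against 8.24% of all genes, and 0 were at least 1.5-fold higher, against 7.04%. The median log2 ratio of the 16 was -0.37. In the leucine branch, Mccc2, the partner subunit of Mccc1, was at -0.28 and the hydratase Auh at -0.24. In the valine branch, the hydrolase Hibch was at -0.44, the dehydrogenase Hibadh at -0.39 and Aldh6a1 at -0.35. These 5 genes sit downstream of Ivd or Acad8, and each had a ratio nearer to 0.

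The isoleucine branch held the exception. Acadsb, its acyl-CoA dehydrogenase, was at -0.40, the hydratase Echs1 at -0.27 and the thiolase Acat1 at -0.09. Hsd17b10, the next dehydrogenase of this branch and also a part of mitochondrial RNase P, read 2075 in control and 2530 in cast muscle, a log2 ratio of 0.29. Propionyl-CoA, the end product of valine and isoleucine, is handled by 6 genes, all below 0. Pcca and Pccb, the carboxylase subunits, were at -0.48 and -0.49, the mutase Mmut at -0.44 and the epimerase Mcee at -0.15. Mmaa and Mmab, which supply the mutase with its cobalamin cofactor, had the lowest ratios there, at -0.76 and -0.79, and the 3 Mmab probes ran from -0.79 to -0.64.

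With no scaling, 9 of these 16 genes were below 0, with a median of -0.029, and with spike-in scaling 8 were, with a median of -0.018. The direction of the wider pathway is therefore one relative to other genes.

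The pyruvate dehydrogenase complex is built on the same plan, and its transcripts can be set beside those above. Its E2 core Dlat had a log2 ratio of -0.82. Dbt stood -0.03 from it, and between -0.05 and 0.18 over all settings, with a spot-level SD of 0.17. Its E1 alpha subunit Pdha1 was at -0.53, which is 0.36 below Bckdha, and its E1 beta subunit Pdhb was at -0.27, which is 0.48 below Bckdhb. The probes of Pdhb ran from -0.28 to 0.87, so its gap to Bckdhb depends on the probe, and was 0.10 with the mean of probes. Dlst, the E2 core of the 2-oxoglutarate complex, was at -0.62. Dld, the E3 subunit that all 3 complexes share, was at -0.28.

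The regulators of pyruvate dehydrogenase went their own ways. Of its phosphatases, Pdp2 was at -1.29 from a dim probe (57.3 and 23.5) and Pdp1 at -0.14. The 3 probes of Pdp1 ran from -0.14 to 0.12, so its sign depends on the probe. Of its kinases, Pdk4, which fasting and fat oxidation induce, was at -0.89, Pdk2 at 0.18, Pdk3 at 0.10 and Pdk1 at -0.12. The Pdk3 probe was dim (6.46 and 6.94), and its ratio was -0.07 with normexp. The lowest ratio was again that of a phosphatase, but this rests on the dim Pdp2 probe alone. With normexp Pdp2 was at -0.92 and Pdk4 at -0.87, and the other phosphatase, Pdp1, lay above Pdk4. Unlike Bckdk, Pdk4 was at least 1.5-fold lower.

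Among relatives of Ivd and Acad8, a list of 8 acyl-CoA dehydrogenase genes, which is not complete, had a median of -0.69. All 8 had ratios below 0, against 53.0% of all genes measured. At least 1.5-fold lower were 6 of them, against 8.24% of all genes. The medium-chain enzyme Acadm was at -0.93, the short-chain enzyme Acads at -0.85 and the long-chain enzyme Acadl at -0.81, the lowest of the 8. Ivd was at -0.83 and Acad8 at -0.90. Nearer to 0 were Gcdh and Acad11 (both -0.69), Acadvl (-0.63), Acad10 (-0.30) and Acad9 (-0.24). With no scaling Acad9 was at 0.10 and Acad10 at 0.04, and Acadm alone was still at least 1.5-fold lower (-0.59). The electron transfer flavoprotein genes Etfa and Etfb and its dehydrogenase Etfdh, which take up the electrons of these enzymes, were at -0.49, -0.43 and -0.56. Among the biotin-dependent carboxylases related to Mccc1, Pcx was at -0.02, Acaca at 0.18 and Acacb at -0.29.

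**Figure D4:**
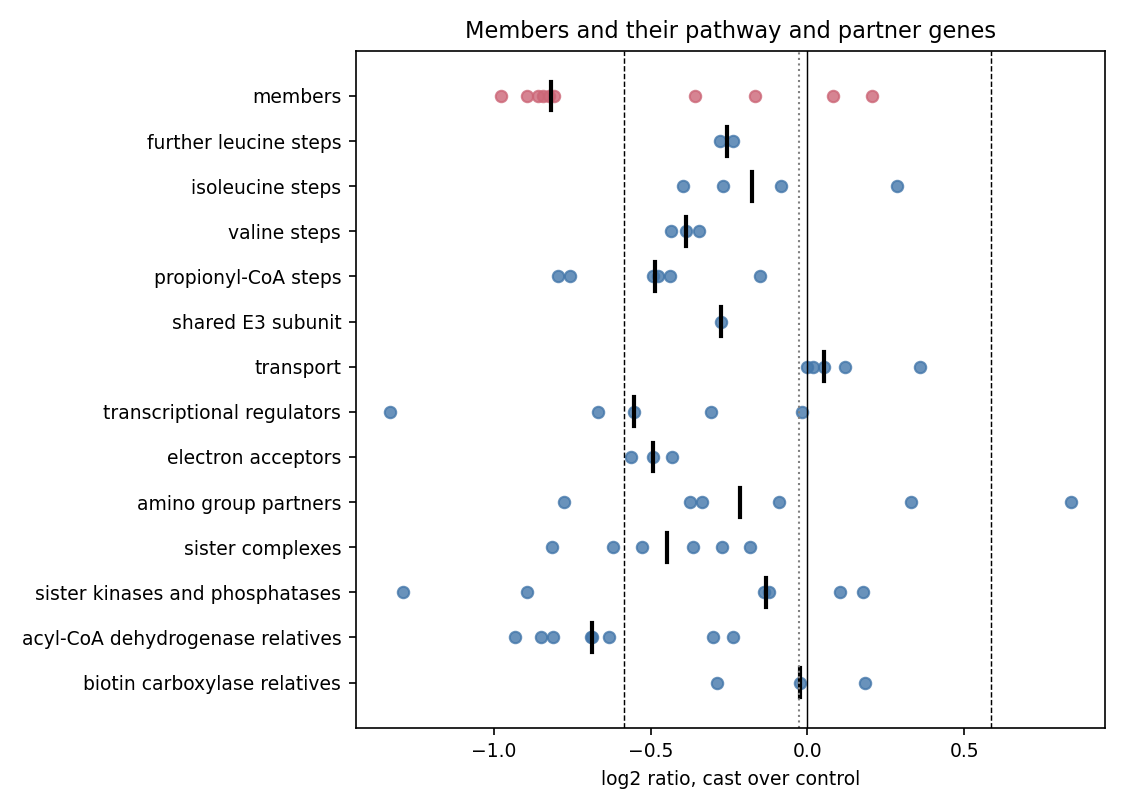
Log2 ratio of cast over control (x axis) for the 10 members (red) and the genes of 13 pathway and partner lists (blue), 1 point per gene, with a black bar at each list's median, a dotted line at the median of all genes (-0.03) and dashed lines at 1.5-fold. The members form a cluster near their lowest values and a scatter around 0, acyl-CoA dehydrogenase relatives lie nearest to the cluster, and transport genes lie around 0.

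Genes that handle the amino group and bring in the substrate were mixed. Gpt2, the mitochondrial alanine aminotransferase, read 1741 in control and 3114 in cast muscle, a log2 ratio of 0.84, while the cytosolic Gpt was at -0.77. Glul, which makes glutamine, was at 0.33, and Glud1, which frees ammonia from glutamate, at -0.09. The aspartate aminotransferases Got1 and Got2 were at -0.33 and -0.38. Of the transporters, Slc3a2, the heavy chain of the large neutral amino acid transporter, was at 0.36. Its light chain Slc7a5 was dim (9.34 and 10.1), at 0.12 with a spot-level SD of 0.15, and at -0.10 with normexp. Slc25a44, the mitochondrial carrier of branched-chain amino acids, was at 0.05, with its lowest probe at -0.10. None of the 5 transport genes was at least 1.5-fold apart, where 8.24% of all genes measured were lower and 7.04% higher by that size.

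Transcription factors known to act on these enzymes in muscle differed among themselves. Klf15, which activates Bcat2 and other genes of amino acid breakdown, read 80.5 in control and 79.6 in cast muscle, a log2 ratio of -0.02. Ppargc1a, a coactivator of mitochondrial genes that raises branched-chain amino acid enzymes when overexpressed in muscle, was at -0.55, its partner Esrra at -0.67, Ppara at -1.33 and Ppard at -0.31. The 2 Ppargc1a probes were at -0.55 and -0.34. All 5 genes were below 0, against 53.0% of all genes measured, but Klf15 by less than its spot-level SD of 0.10. At least 1.5-fold lower were 2, against 8.24% of all genes. With no scaling Klf15 was at 0.32 and Ppard at 0.03.

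The promoter table of RefSeq (GRCm38.p6), with 300 bases around each start, held 12 promoters of 9 of the 10 genes. The element TNAAGGTCA, bound by estrogen-related receptors, was found on neither strand in any of the 12, and in 1.28% of all 32851 promoters. CACCC, a core of Krüppel-like factor boxes, was found on at least 1 strand in 8 of the 12, and in 57.5% of all promoters. These searches cover only the letters and the windows named.

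Other transcripts of the tissue also differed between the arrays, and their part in these ratios was not tested. The muscle identity of both pools was plain, since all 9 fast-fibre markers were measured, and their summed scaled intensity was 396581 in control and 324218 in cast muscle. All 9 slow or oxidative fibre markers had ratios below 0, with 7 at least 1.5-fold lower, and their summed intensity was 95367 and 49642. Of all genes measured, 53.0% were below 0 and 8.24% at least 1.5-fold lower. Myl3, Myl2 and Myh2 were at -1.90, -1.72 and -1.38. All 6 mitochondrial content markers were below 0 with a median of -0.30, led by Cycs (-0.62), Hspd1 (-0.52) and the citrate synthase gene Cs (-0.34), and their sum was 57525 and 44785.

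Markers of other cell types were also present. The counts below stand beside 53.0% of all genes measured with a ratio below 0. All 5 fibroblast markers were below 0, but unequally, with the collagen genes Col1a1 at -1.76 and Col1a2 at -1.70 and Pdgfra at -0.07. With no scaling Pdgfra was at 0.27. The summed intensity of the 5 was 21168 in control and 12379 in cast muscle. Of 7 macrophage markers, 6 were measured and 5 were above 0, with a median of 0.32 and sums of 644 and 702, and Cd68 was not measured. All 5 measured adipocyte markers were below 0, with a median of -0.18, and Lep was not measured. Of 5 endothelial markers, 4 were below 0, with sums of 1643 and 1195. With no scaling the median was 0.16 for the adipocyte and 0.02 for the endothelial markers. Satellite cell markers were measured for 2 of 4 genes and did not differ alike. Cdh15 was at 1.35, and Pax7, from a dim probe (14.2 and 15.0), at 0.08 with a spot-level SD of 0.15. Schwann cell markers summed to 733 and 729.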

How the data were processed

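Cy3-labelled cRNA of 2 pooled RNA samples was measured on 1-colour Agilent arrays. The submitters' processing notes name Agilent Feature Extraction 9.5. Its processed intensity, per the file headers, is background-subtracted and detrended within the array, without scaling between arrays, and takes a surrogate value near background. The deposited value table holds linear intensity too. Its columns, with medians of 9.00 (control) and 8.70 (cast), matched the processed signal over the array's 75th percentile times 100, within 0.0072 log2 units at values of 100 or more, and 54.9% of its values were exactly whole, so it served as an alternative. All its columns belong to these samples.

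Flagged spots (214 of the non-control spots) were left out, spots of a probe averaged as log2 values, and the 75th percentile of each array (385 for control, 486 for cast) subtracted. A probe was measured when well above background in over 0.5 of its spots on both arrays, and a gene took its brightest measured probe. Of 39429 probes, 26055 were named by accession (RefSeq table of GRCm38, names alone) and others by the array's name. Python 3.11.15 and limma 3.58.1 in R 4.3.3 were used, and the steps were tested on simulated data. No test between groups exists with 1 array each. Sizes of 1.5-fold and 2-fold serve as thresholds. All members and the 16 pathway genes analysed are named, 1 further planned gene is not reported here. Genes of the related lists may be named, and of markers up to 3 a list and those at or below background. No genes of like pattern are named, since 2 arrays give no pattern. The protein sequences that had been planned are not analysed here. Members and lists were chosen with earlier results of these data known.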

Additional observations from a re-analysis of the deposited data

How the results depend on the processing

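The alternatives were scaling by the median, by quantiles, by loess, by spike-ins and none, normexp with an offset of 50, the deposited table, the mean of probes and 2 detection rules. The median of the 10 genes, -0.82, was -0.48 with no scaling, -0.47 with spike-in scaling, -0.54 with normexp and -0.60 with the mean of probes. The number at least 1.5-fold lower, 6, was 5 with normexp, 5 with the mean of probes, 1 unscaled and 1 scaled on spike-ins, and 0 at a 2-fold threshold. Relative to the median of all genes, the set lay at -0.49 with normexp, and 4 genes were at least 1.5-fold below that median. For the 16 further pathway genes, the median of -0.37 became -0.029 unscaled and -0.018 scaled on spike-ins, the number below 0 went from 15 to 9 and 8, and the number at least 1.5-fold lower from 2 to 0 in both and at a 2-fold threshold. A constant scaling shifts all ratios alike, which accounts for the moves in the unscaled and spike-in values. Mccc1 reversed, to 0.074, with its downstream probe, an alternative chosen after seeing the data, as was the comparison with nearby spots. Of the 10 genes, 8 were below 0 under each other alternative save 9 with normexp and 7 with no scaling or spike-in scaling. No paired analysis was possible because each group is 1 array. The probes of Bcat1, Acad8 and Dbt were dim.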
